A study of Mus musculus with 32 samples.

Results

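The genes described here are 10 genes of blood and lymphatic vessel endothelium: Pecam1, Kdr, Tek, Flt1, Tie1, Vwf, Emcn, Lyve1, Prox1 and Flt4. They were taken by name from a table of 51912 gene identifiers, and each of the 10 matched 1 identifier. Their levels were followed in 32 RNA-seq libraries from sorted nuclei of the mouse gut, in 8 groups of 4. Every mouse was C57BL/6, was kept specific pathogen-free at either the University of Bern or the Francis Crick Institute, and had received AAV9-CaMKII-EGFPKASH, a viral vector that labels nuclei with EGFP from a CaMKII promoter, into a vein. At 5 weeks the longitudinal muscle with the attached myenteric plexus was peeled from the colon or the small intestine (SI), and nuclei were sorted as EGFP+ (neuronal) or EGFP- (non-neuronal). The groups are thus Bern colon, Bern SI, Crick colon and Crick SI, each as neuronal and as non-neuronal nuclei. The neuronal sort selects nuclei in which the promoter was active, and a neuron without EGFP falls in the non-neuronal sort. The ages of the animals, and whether the 4 libraries of a group came from separate animals, are not given in the sources used here, so the p-values measure the spread between libraries, which may be technical.

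Endothelial cells line blood and lymphatic vessels, and both kinds run through the muscle layers of the gut. The VEGF receptors Flt1, Kdr and Flt4 and the angiopoietin receptor system of Tek and its partner Tie1 are the main growth factor receptors of these cells: VEGF-A acts through Kdr on blood vessels, Flt1 binds VEGF-A tightly and limits it, and VEGF-C acts through Flt4 on lymphatic vessels. Prox1 is the transcription factor that sets lymphatic identity, and Lyve1 is a hyaluronan receptor of lymphatic endothelium that some tissue macrophages also carry. Pecam1 is an adhesion protein of endothelial junctions, Emcn is a sialomucin of the endothelial surface, and Vwf is the clotting protein stored in endothelial granules and platelets. Several of the genes called blood endothelial here (Pecam1, Kdr, Tie1) are also active in lymphatic vessels.

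Promoters of endothelial genes often hold sites for ETS factors, whose core is GGAA (TTCC on the other strand). The windows of 4 members are shown because 2 of them, Emcn and Kdr, passed the colon against SI test in non-neuronal nuclei described further on and the other two, Flt1 and Tek, did not. Each is the window of 250 bases before the gene's start in RefSeq (GRCm38.p6), 5′ to 3′ on the gene's strand and ended at the first base that GENCODE annotates as exon. Capitals mark each GGAA or TTCC.
Emcn: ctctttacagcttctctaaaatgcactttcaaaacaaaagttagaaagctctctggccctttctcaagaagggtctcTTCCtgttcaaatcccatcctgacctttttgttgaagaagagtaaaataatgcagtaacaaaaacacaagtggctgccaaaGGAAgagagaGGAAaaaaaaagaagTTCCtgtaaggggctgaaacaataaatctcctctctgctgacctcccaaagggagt
Kdr: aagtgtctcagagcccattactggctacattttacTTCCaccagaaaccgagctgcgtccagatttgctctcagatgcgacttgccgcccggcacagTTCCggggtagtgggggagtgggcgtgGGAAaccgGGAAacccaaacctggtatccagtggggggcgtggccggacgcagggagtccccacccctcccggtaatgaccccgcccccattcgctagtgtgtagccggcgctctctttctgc
Flt1: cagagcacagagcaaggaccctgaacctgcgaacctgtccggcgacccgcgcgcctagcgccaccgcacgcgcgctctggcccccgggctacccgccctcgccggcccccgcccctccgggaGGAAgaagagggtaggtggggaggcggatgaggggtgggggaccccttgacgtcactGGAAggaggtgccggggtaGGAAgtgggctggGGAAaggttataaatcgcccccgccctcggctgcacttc
Tek: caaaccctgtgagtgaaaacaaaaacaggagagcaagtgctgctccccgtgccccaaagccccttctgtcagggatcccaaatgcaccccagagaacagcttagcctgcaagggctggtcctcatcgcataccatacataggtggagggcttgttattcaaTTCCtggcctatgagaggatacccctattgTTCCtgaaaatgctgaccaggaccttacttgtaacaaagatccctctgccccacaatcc
The Emcn window lies at chr3:137340828-137341066 (+), the Kdr window at chr5:75978459-75978705 (-), the Flt1 window at chr5:147726012-147726261 (-) and the Tek window at chr4:94739039-94739288 (+), all upstream of the first exon. Emcn, Kdr and Flt1 have 4 matches each in 250 bases, and Tek has 2. Of 32851 mouse promoter windows of this length, 33.4% hold at least 4 matches, 76.8% hold at least 2 and 93.4% hold at least 1, so these counts are common. RefSeq windows were found for 7 of the 10 members. Of the windows not shown, the one of Tie1, which also passed the colon against SI test, has 7 matches in 250 bases, a count that 3.82% of promoters reach. Prox1, which passed too, has 2 windows with 5 and 2 matches (18% and 76.8% of promoters have at least as many), and Flt4, which passed, has 2. Pecam1, Vwf and Lyve1 had none in the table used.

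The total count per library ran from 2394481 to 8350833 (median 4364008), and 3 counts are worth 0.359 to 1.25 CPM, the count scaled to a fixed library total. Mitochondrial transcripts took 0.42% to 23.58% of the counts. Libraries stood apart in 3 ways: Crick SI library 2 in mitochondrial share in both sorts (23.58% non-neuronal, 15.99% neuronal), Crick colon non-neuronal library 3 in Cd74, an antigen presentation gene of macrophages, dendritic cells and B cells (1579 CPM, against 187 to 250 in the other 3 libraries of its group), and Bern colon non-neuronal libraries 1 and 2 and Bern SI non-neuronal library 1 in pan-neuronal genes. The leading counts are given with and without these 6 libraries. Bern SI non-neuronal library 2 detected the fewest genes of all (15641). The sort held in direction for neurons, smooth muscle and epithelium: all 12 pan-neuronal genes were higher in neuronal nuclei (21.9% over all genes). All 10 smooth muscle genes and all 8 epithelial genes were lower (21.6%). Smooth muscle genes still summed to 562 to 1561 CPM in neuronal libraries, against 6747 to 19317 CPM in non-neuronal ones. Of 5 genes of interstitial cells of Cajal 3 were lower and 1 higher. Their sum was 1466 to 2015 CPM in Crick SI neuronal nuclei against 413 to 1056 in non-neuronal ones, and overlapped between the sorts elsewhere. Pan-neuronal genes summed to 809 to 1791 CPM in Bern colon non-neuronal nuclei, against 4065 to 5474 in neuronal ones.

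The highest level per length belonged to Lyve1 in each of the 4 non-neuronal groups: 224 CPM per kilobase of exon in Bern colon, 98.6 in Crick colon, 27.7 in Bern SI and 2.99 in Crick SI. In the colon of both facilities Flt4 and Prox1 came next, at 18.3 and 12.3 CPM per kilobase in Bern and 20.8 and 18.2 in Crick. Lymphatic genes therefore stood at the top of the members in colon. In SI the second place went to Tek, with 5.23 CPM per kilobase in Bern and 2.21 in Crick, and Flt4 was near the bottom of the order (0.0866 and 0.789). The place of Tek in Bern SI came from library 2, with 88 CPM against 0 to 7.12 in the others. Across the 8 groups, 9 of the 10 members had their 2 highest mean levels in the colon non-neuronal groups, and Vwf, with its highest mean in Bern SI non-neuronal nuclei, did not. That Vwf mean came mostly from library 3, with 206 CPM against 0.316 to 7.77 in the others. When the groups were put in order of their means, the libraries of neighbouring groups overlapped at every step for Tek, Tie1, Vwf and Lyve1. Flt4 showed breaks on both sides of Crick SI non-neuronal nuclei (6.49 ± 2.17 CPM; SD, n = 4), below both colon groups and above all 5 groups with lower means.

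**Figure D1:**
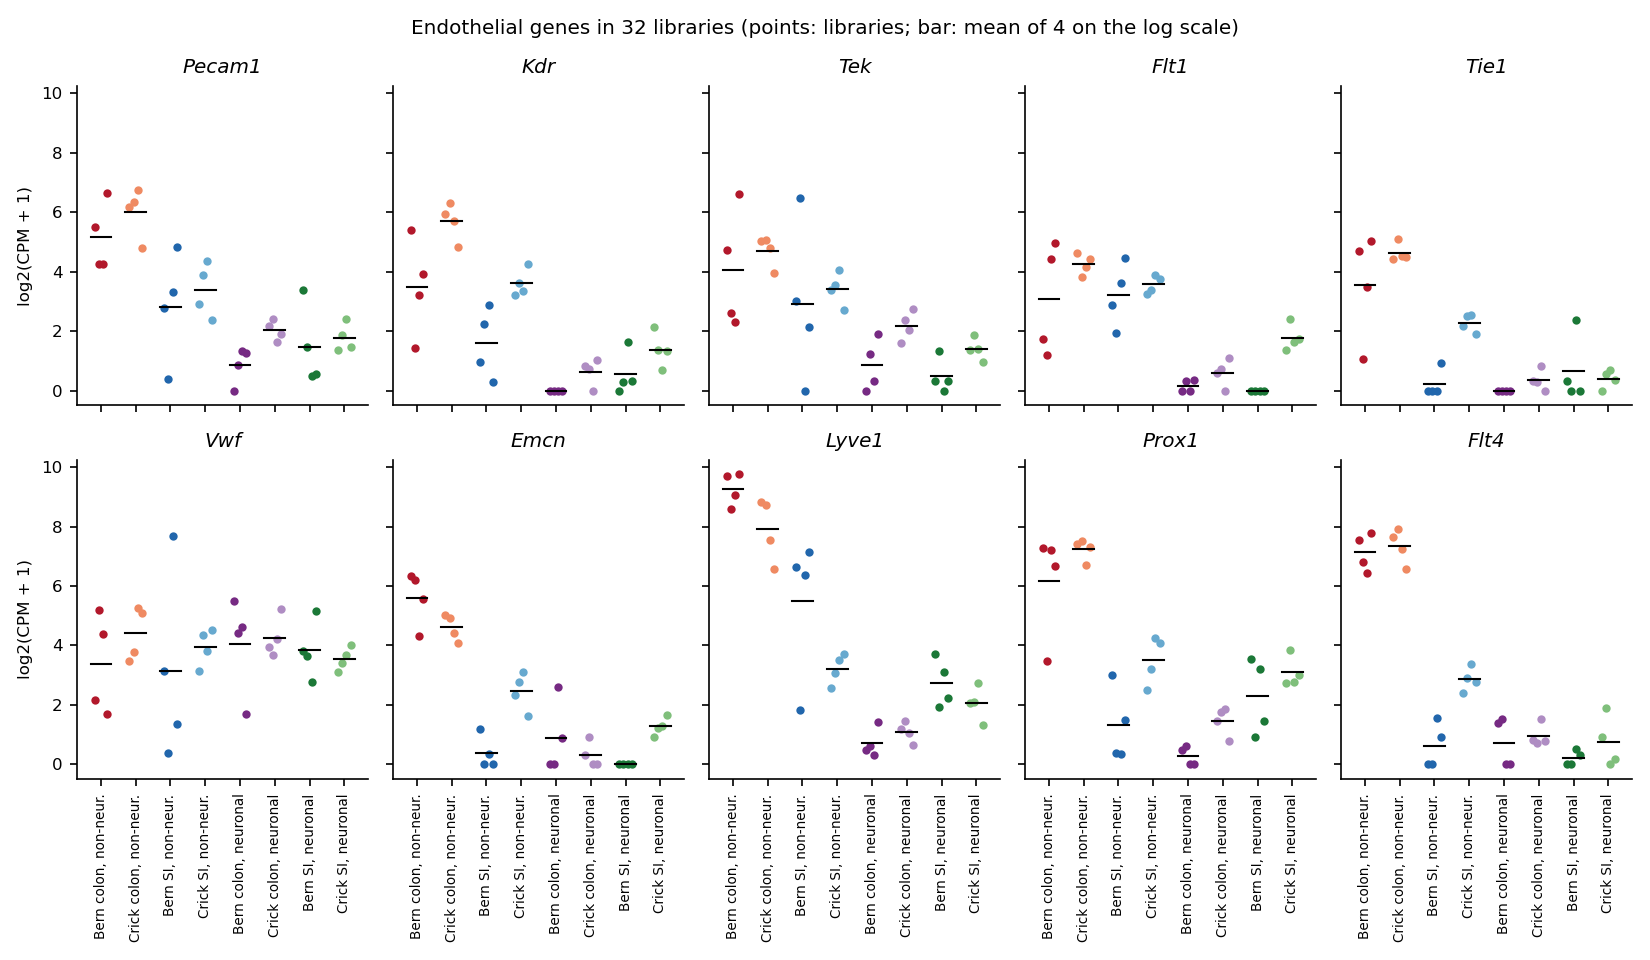
Levels of the 10 endothelial genes in 32 libraries, as log2(CPM + 1) on the vertical axis, with the 8 groups on the horizontal axis (SI, small intestine; non-neur., non-neuronal). Each point is a library and each bar is the mean of 4 on the log scale; Lyve1, Prox1 and Flt4 are highest in both colon non-neuronal groups, while Vwf overlaps between neighbouring groups.

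The first comparison asked how far endothelial transcripts were depleted from the neuronal sort. Of the 10 members, 9 were lower in neuronal than in non-neuronal nuclei and none was higher, while 21.6% of the 21521 genes tested were lower (edgeR's quasi-likelihood test over 4 strata, Benjamini-Hochberg adjusted p under 0.05). The median log2 fold change of the members was -4.32, or -3.80 with members that had no count in a group set at the limit of 3 counts, against -0.01 over all genes. The same 9 passed without the 6 libraries in doubt. Vwf was the member that did not pass.

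Lyve1 showed the largest fold change of the members. It had 827, 386, 531 and 867 CPM in Bern colon non-neuronal libraries 1 to 4, and 0.413, 0.541, 0.256 and 1.67 CPM in the neuronal libraries. In Crick colon it had 452, 417, 187 and 94.8 CPM against 1.27, 1.75, 1.06 and 0.586 CPM. No library overlapped in colon. In SI the non-neuronal libraries reached only 2.53 to 141 CPM in Bern and 4.97 to 12.1 CPM in Crick, and both overlapped with neuronal libraries (2.84 to 12.1 and 1.51 to 5.64 CPM). Over the 4 strata the log2 fold change of Lyve1 was -5.73 ± 0.37 (SE; adjusted p = 1.72e-15). Flt4, the lymphatic VEGF receptor, fell by 4.95 ± 0.49 (1.23e-10), and Prox1, the lymphatic transcription factor, fell by 3.63 ± 0.44 (8.54e-09). The fall of Prox1 did not hold in every stratum. In Bern SI its mean was higher in neuronal nuclei (5.44 against 2.38 CPM), and in Crick SI it was 8.01 against 11.8 CPM. The Prox1 libraries of the sorts overlapped in both.

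Among the receptors of blood vessels, Flt1 had 2.34, 1.3, 20.6 and 30.7 CPM in Bern colon non-neuronal libraries and 6.47, 2.85, 11.4 and 21 CPM in those of Bern SI. Its neuronal counterparts had at most 0.279 CPM in Bern colon and no count in Bern SI. Flt1 was the single member whose sorts did not overlap in any of the 4 strata. Its log2 fold change was -5.51 ± 0.59 (adjusted p = 1.40e-09), and in Bern SI the mean was at least 52.2-fold lower in neuronal nuclei (at least 34.6-fold without the highest non-neuronal library), taking 3 counts over the group as the limit. Kdr had no count in any Bern colon neuronal library, against 41.4, 1.73, 8.35 and 14.1 CPM in the non-neuronal ones, at least 74.3-fold lower (at least 36.6-fold without the highest library). Tie1 was likewise uncounted in Bern colon neuronal nuclei, against 25, 1.08, 10.2 and 31.7 CPM, at least 77.1-fold lower (at least 54.8-fold without the highest library). Over the strata the log2 fold changes were -5.19 ± 0.59 for Kdr (5.71e-09), -4.33 ± 0.73 for Tie1 (8.56e-06) and -3.98 ± 0.60 for Tek (7.44e-07). These fitted values depend on the prior count where a group has no count. The Tie1 call was lost without Bern SI non-neuronal library 4, the only one of its group with a Tie1 count (log2 fold change -3.44). Bern SI non-neuronal and Bern colon neuronal nuclei then both lack a count, so that test cannot decide. In Bern colon, Crick colon and Crick SI every neuronal library was below every non-neuronal one for Tie1. In Bern SI the Tie1 mean was higher in neuronal nuclei (1.11 against 0.226 CPM), mostly from neuronal library 3 (4.18 CPM).

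The junction gene Pecam1 had 44.1, 18.2, 18.3 and 100 CPM in Bern colon non-neuronal nuclei and 70.8, 80.6, 106 and 26.7 CPM in Crick colon, against 0 to 1.54 and 2.11 to 4.38 CPM in the neuronal libraries. It fell by 3.51 ± 0.46 (adjusted p = 6.49e-08), and Emcn fell by 4.32 ± 0.65 (1.12e-06). Vwf behaved otherwise. It had 3.51, 35.5, 20.1 and 2.27 CPM in Bern colon non-neuronal libraries and 44.6, 20.6, 23.6 and 2.23 CPM in neuronal ones, and 10.2 to 37.4 against 11.8 to 36.5 CPM in Crick colon. Vwf libraries overlapped between the sorts in all 4 strata, and the log2 fold change was -0.51 ± 0.50 (0.447). Of 4 tested platelet and megakaryocyte genes, which mark another source of Vwf, 1 was higher in neuronal nuclei, near the share over all genes (21.9% higher), and 0 were lower.

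**Figure D2:**
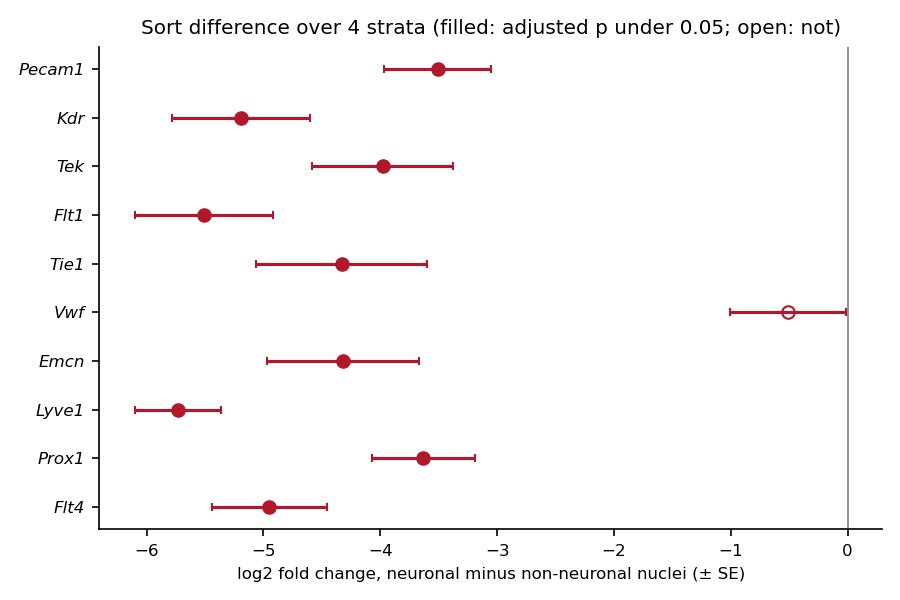
Log2 fold change, neuronal minus non-neuronal nuclei, over the 4 strata for each member, with bars of 1 SE. Filled points passed at an adjusted p under 0.05; 9 of 10 lie between -5.73 and -3.51, and Vwf, at -0.51, is open.

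The separation of the sorts was uneven between the gut segments. In Bern colon and in Crick colon, 9 of 10 members were lower in neuronal nuclei with no overlap of libraries, against 9.23% and 19.5% of all genes tested. In Crick SI 5 members did so (Kdr, Tek, Flt1, Tie1 and Flt4; background 12.6%), and in Bern SI 1 did, Flt1 (5.5%). The test of segment by sort gave the difference itself: 6 members had a larger colon-to-SI difference in non-neuronal than in neuronal nuclei, while 5.39% of all genes did. They were Prox1 (log2 difference, neuronal minus non-neuronal, of the colon minus SI change: -7.82 ± 0.88, adjusted p = 2.19e-07), Lyve1 (-6.27 ± 0.68, 1.16e-07), Tie1 (-6.81 ± 1.43, 0.00327), Kdr (-5.10 ± 1.17, 0.00706), Flt4 (-4.99 ± 1.38, 0.023) and Pecam1 (-2.92 ± 0.88, 0.0365). Tie1 and Kdr each have a group with no count, so their fitted sizes depend on the prior count. The same holds for Flt1 and Emcn, which did not pass with edgeR. For Emcn the edgeR test cannot decide, because the Bern SI neuronal group, without a count, can take any low level. DESeq2 called Emcn as well (-3.36, adjusted p = 0.023), 7 members in all. Without the 6 libraries in doubt 4 passed, and Pecam1 (0.0846) and Flt4 (0.0615) did not. Leaving out Bern SI neuronal library 3 ended the Tie1 call (0.0533) and, as did library 4 of that group, the Flt4 call (up to 0.139). The Pecam1 call was lost without any 1 of 13 of the 32 libraries (up to 0.154): in non-neuronal nuclei Bern colon 4, Crick colon 1 to 3 and Crick SI 1 and 4, and in neuronal nuclei Bern colon 1 and 2, Bern SI 1, Crick colon 1 and 3 and Crick SI 2 and 3.

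The second comparison asked how non-neuronal nuclei of the colon differed from those of the SI. Of the 10 members, 7 were higher in colon and none was lower, while 5.79% of 19164 genes were higher. The median log2 fold change was 2.88 against 0.02 over all genes. The 3 lymphatic genes and Emcn, Tie1, Pecam1 and Kdr were higher, and Tek, Flt1 and Vwf did not pass. Without the 6 libraries in doubt 5 of the 7 passed, and Pecam1 (adjusted p = 0.116) and Kdr (0.145) did not. In bulk nuclei, fewer endothelial nuclei and less RNA per nucleus cannot be told apart. In Bern the segments also differed in library quality. Every SI non-neuronal library detected fewer genes (15641 to 18355) than any colon one (19678 to 20912). Its mitochondrial share was higher as well (11.07% to 12.91% against 3.49% to 7.44%). In Crick both measures overlapped between the segments. The part of library quality in the Bern differences was not tested.

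Flt4 differed most. It had 185, 111, 85.6 and 221 CPM in Bern colon and 0, 0, 1.95 and 0.903 CPM in Bern SI, and 200, 238, 152 and 93.8 CPM in Crick colon against 4.23, 6.46, 9.42 and 5.86 CPM in Crick SI. The segments did not overlap at either facility. Over both facilities the log2 fold change was 5.84 ± 0.47 (adjusted p = 6.49e-08), in Bern alone 7.20 ± 0.73 (5.55e-06) and in Crick alone 4.48 ± 0.61 (0.000602). Prox1 had 155, 10.2, 147 and 101 CPM in Bern colon against 7.12, 0.316, 0.278 and 1.81 CPM in Bern SI, and 168, 183, 103 and 157 against 4.6, 8.33, 18.2 and 16 CPM in Crick. Bern colon library 2 was the low one, yet still above every SI library of Bern. The log2 fold change of Prox1 was 4.29 ± 0.56 over both facilities (5.71e-05), 5.07 ± 0.83 in Bern (0.0013) and 3.52 ± 0.75 in Crick (0.0448). The Crick call was lost without any 1 of 11 of the 16 libraries (up to 0.2), namely all 8 of Crick and Bern colon libraries 1, 3 and 4. Prox1 (chromosome 1, 190118035 to 190170714, GRCm38) is overlapped by the antisense genes Prox1os and Gm28172, and the use of strand in counting is not given, so its counts cannot be told apart from theirs.

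Lyve1 was higher in colon by 3.73 ± 0.48 on the log2 scale (adjusted p = 5.09e-05). The Bern SI libraries had 97.7, 2.53, 82.4 and 141 CPM and the Crick SI libraries 4.97, 7.48, 10.3 and 12.1 CPM, all below the colon libraries of their facility. The difference was 2.62 ± 0.65 in Bern (0.0163) and 4.83 ± 0.72 in Crick (0.00148), and without the 6 libraries in doubt these became 0.0919 and 0.0883. In Bern SI the group means were 80.9 ± 57.8 CPM for Lyve1, 2.38 ± 3.24 for Prox1, 0.713 ± 0.927 for Flt4 (SD, n = 4) and 4.33 CPM for Mmrn1, a lymphatic matrix gene. Other genes of the lymphatic list, which other cells of the gut wall also express, stood higher there, with means of 708 CPM for Nrp2, 283 for Itga9 and 79.5 for Gja1. Lyve1 is also a macrophage gene, and the summed level of 12 macrophage markers ran from 247 to 416 CPM in Bern colon, 63.4 to 240 in Bern SI, 420 to 1797 in Crick colon and 153 to 283 in Crick SI. Timd4 was the one macrophage marker at 0, in Bern SI. Of 11 tested markers 2 were higher in colon, Cd74 (2.52) and Csf1r (1.75), beside 5.79% of all genes. None of them passed in Crick alone, where 0.0991% of all genes were higher. The sum of 1797 came from Crick colon library 3, where Cd74 alone was at 1579 CPM and the other 11 markers at 218 CPM, within the 208 to 263 CPM of the other libraries of the group. That library had 187 CPM of Lyve1, against 452, 417 and 94.8 CPM in libraries 1, 2 and 4. Library 4, the lowest in Lyve1, had 191 CPM of Cd74 and 263 CPM of the other 11 markers. The part of macrophages in the Lyve1 difference was not tested.

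Emcn had 80, 73, 18.8 and 46.1 CPM in Bern colon and 1.29, 0, 0.278 and 0 CPM in Bern SI, against 31.8, 29, 20.3 and 15.8 CPM and 4.05, 5.78, 7.66 and 2.09 CPM in Crick. It did not overlap between segments at either facility, with a log2 fold change of 4.38 ± 0.63 (1.73e-04) over both, 6.73 ± 1.01 in Bern (5.57e-04) and 2.03 ± 0.78 in Crick (0.557). Tie1 followed the same order, with 3.90 ± 0.78 (0.00324) over both, 5.48 ± 1.21 in Bern (0.00924) and 2.33 ± 0.98 in Crick (0.671). Its Bern SI libraries had 0, 0, 0 and 0.903 CPM, the last from 4 counts. In Crick colon Tie1 had 20.6, 33.1, 22.3 and 21.4 CPM, all above the 2.79 to 4.82 CPM of Crick SI.

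Pecam1 and Kdr passed with less margin. Pecam1 means were 45.2 ± 38.7 CPM in Bern colon, 10.6 ± 11.7 in Bern SI, 70.9 ± 32.9 in Crick colon and 11 ± 6.96 in Crick SI (SD, n = 4). Its log2 fold change was 2.02 ± 0.59 (adjusted p = 0.0313), and the call was lost without Bern colon library 4, Crick colon library 2 or 3, or Crick SI library 1 or 4 (up to 0.0821). Kdr means were 16.4 ± 17.4, 2.85 ± 2.82, 54.4 ± 21.3 and 11.8 ± 4.58 CPM in the same order. Its log2 fold change was 2.0 ± 0.61 (0.0396), and 10 of 16 single libraries each ended the call (up to 0.0999), namely all of Crick except colon library 4, Bern colon libraries 1 and 4 and Bern SI library 1. Neither gene passed within a facility, except Pecam1 in Bern without Bern SI library 4 (0.0404). Both nonetheless had no overlap between the segments in Crick.

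The other three members did not differ detectably. Tek had a log2 fold change of 0.45 ± 0.79 (adjusted p = 0.793), Flt1 0.26 ± 0.60 (0.848) and Vwf -0.89 ± 0.81 (0.556). Flt1 was at 13.7 ± 14.4 CPM in Bern colon, 10.4 ± 7.87 in Bern SI, 18.7 ± 4.56 in Crick colon and 11.1 ± 2.58 in Crick SI (SD, n = 4), a narrow range beside Flt4. Tek and Vwf had single libraries far above the rest in Bern: Tek had 7.12, 88, 0 and 3.39 CPM in Bern SI and 25.8, 5.2, 3.92 and 96.5 CPM in Bern colon, and Vwf had 7.77, 0.316, 206 and 1.58 CPM in Bern SI. The direction of all 3 turned without a single library. Without Bern colon library 4 the Tek change was -0.32 and the Flt1 change -0.08, and without Bern SI library 2 the Tek change was 1.97 (adjusted p = 0.0791). Without Bern SI library 3 the Vwf change was 1.13 (0.291). The Bern SI library highest in Tek, library 2, was the lowest in Vwf, and the one highest in Vwf, library 3, had no Tek count.

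**Figure D3:**
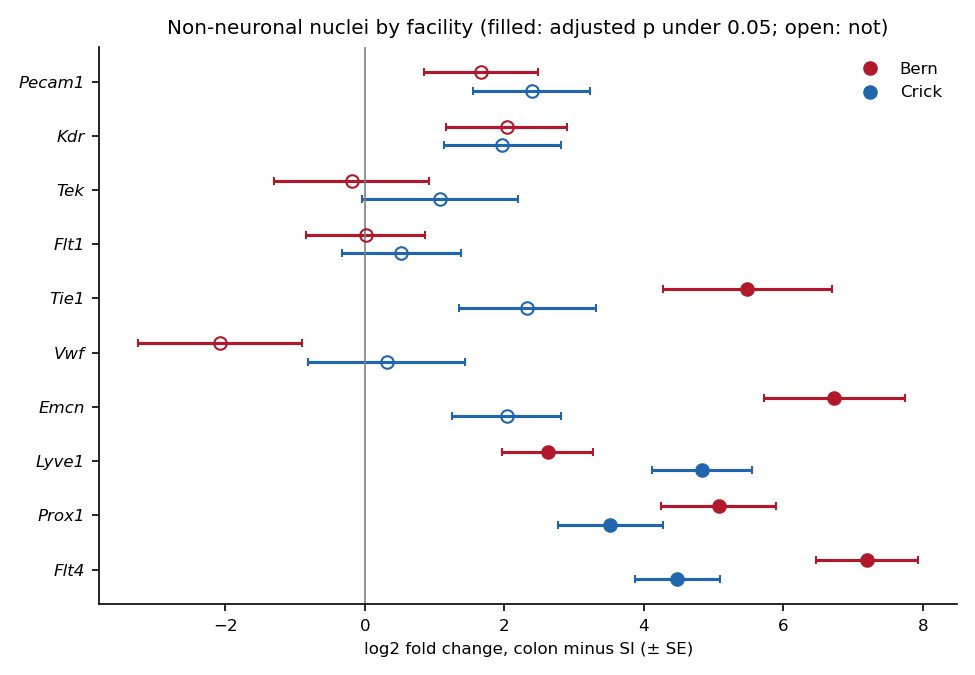
Log2 fold change, colon minus SI, in non-neuronal nuclei of Bern (red) and Crick (blue) for each member, with bars of 1 SE. Filled points passed at an adjusted p under 0.05: Tie1, Emcn, Lyve1, Prox1 and Flt4 in Bern, and Lyve1, Prox1 and Flt4 in Crick.

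Taken facility by facility, 5 members were higher in Bern colon, where 6.51% of genes were, and 3 in Crick colon, where 0.0991% were. Without the 6 libraries in doubt 4 members passed in Bern and 1 in Crick, Flt4, with Prox1 at 0.0548 and Lyve1 at 0.0883 in Crick. By overlap alone, 5 members were higher in every Bern colon library than in any Bern SI library (background 7.61%) and 7 in Crick (8.87%). For Tie1 in Bern this rested on 5 counts in colon library 2 (1.08 CPM) against 4 counts in SI library 4 (0.903 CPM). Whether the segment difference itself differed between facilities was tested as an interaction. edgeR called 0 of 19164 genes (2015 had an unadjusted p under 0.05, among them the 4 members Tie1, Emcn, Lyve1 and Flt4), with adjusted p of 0.241 for Emcn and 0.247 for Flt4. DESeq2 called 329 genes, among them Emcn (4.81, adjusted p = 0.00484) and Flt4 (2.75, 0.0492).

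Other cell types moved with the segment too. In non-neuronal nuclei, 5 of 12 pan-neuronal genes and 4 of 8 epithelial genes were higher in colon and none was lower, and 3 of 10 smooth muscle genes were lower and none was higher, beside 5.79% of all genes higher and 3.54% lower. The summed pan-neuronal level was 809 to 1791 CPM in Bern colon against 35.8 to 691 in Bern SI, and 175 to 355 in Crick colon against 52 to 172 in Crick SI, with no pan-neuronal gene at 0 in any group. The epithelial sum was 1745 to 13036 CPM in Bern colon, 360 to 818 in Bern SI, 2642 to 9462 in Crick colon and 161 to 1147 in Crick SI, with no marker at 0. The neuronal sort of the colon held the 10 endothelial members at 9.19 to 47.1 CPM in sum in Bern and 25.8 to 49.2 in Crick, against 643 to 1511 and 504 to 1119 CPM in the non-neuronal sort. In the highest neuronal libraries most of the sum was Vwf (44.6 CPM in Bern library 1 and 36.5 CPM in Crick library 4). The part of epithelial or other cells in the endothelial difference was not tested.

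The balance of lymphatic to blood vessel genes was described by the sum of Lyve1, Prox1 and Flt4 and the sum of Pecam1, Kdr, Tek, Flt1, Tie1 and Emcn. The lymphatic sum was 907 ± 331 CPM in Bern colon, 84.1 ± 59.5 in Bern SI, 612 ± 255 in Crick colon and 27 ± 11 in Crick SI (SD, n = 4). The blood sum was 180 ± 111, 49.1 ± 33.4, 219 ± 63.1 and 53.2 ± 13.5 CPM. The ratio of lymphatic to blood sum was 1.82 to 3.43 in Crick colon and 0.342 to 0.746 in Crick SI, with no overlap. In Bern it was 3.72 to 9.53 in colon and 0.03 to 4.84 in SI, with overlap. The lowest ratio, 0.03, came from Bern SI library 2, where Tek made up most of the blood sum. In Bern, Lyve1 made up most of the lymphatic sum in both segments. These sums carry no test.

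**Figure D4:**
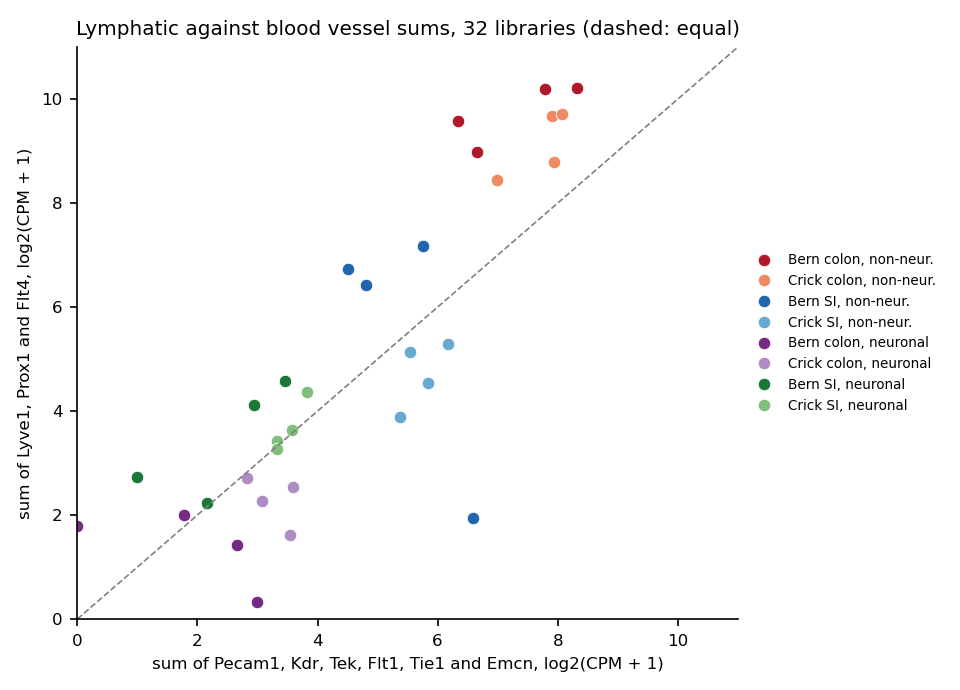
Summed level of Lyve1, Prox1 and Flt4 (vertical axis) against the summed level of Pecam1, Kdr, Tek, Flt1, Tie1 and Emcn (horizontal axis), both as log2(CPM + 1), in 32 libraries coloured by group. Colon non-neuronal libraries lie at the upper right above the dashed line of equal sums, Crick SI non-neuronal libraries lie below it, and 1 Bern SI non-neuronal library falls far below the rest of its group.

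The third comparison set the facilities against each other in non-neuronal nuclei. Over both segments Lyve1 was higher in Bern (log2 fold change, Bern minus Crick, 2.19 ± 0.45, adjusted p = 0.00389), and Flt4 (-1.64 ± 0.42, 0.017) and Kdr (-1.91 ± 0.61, 0.0495) were lower, while 9.29% of genes passed in either direction. Within SI, Lyve1 was higher in Bern by 3.30 ± 0.68 (0.0131), and Flt4 (-2.99 ± 0.66, 0.021) and Emcn (-3.62 ± 0.93, 0.0345) were lower (background 4.44%). In colon 0 of 10 members passed with edgeR and 0 with DESeq2, against 1.07% of genes with edgeR, 1 member (Kdr) had an unadjusted p under 0.05, and all 10 overlapped between the facilities. In SI, Kdr, Tie1, Emcn and Flt4 were lower in every Bern library than in any Crick library (background 12.5%).

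Most of these facility calls depended on which libraries were included. Without the 6 libraries in doubt, the over-both calls of Lyve1 (0.0593), Flt4 (0.122) and Kdr (0.108) and the SI calls of Lyve1 (0.0724), Flt4 (0.0872) and Emcn (0.06) were lost, while Prox1 passed as lower in Bern (0.0379 over both, 0.0333 in SI). Single libraries ended the Kdr call in 12 of 16 cases (up to 0.103; all 8 of Crick, Bern colon 2 to 4 and Bern SI 1), the SI Emcn call in 9 of 16 (up to 0.0831; Bern SI 2 and 3, Crick colon 1 to 3 and all 4 of Crick SI), the SI Flt4 call without Crick SI library 3 (0.0573) and the SI Lyve1 call without Crick SI library 1 (0.0601). Calls were also gained: over both segments Emcn and Prox1 passed as lower in Bern without Bern SI library 1 and Tie1 without Bern colon or SI library 4, and in SI Prox1 passed without Bern colon library 2 or Bern SI library 1 and Tie1 without Bern colon library 2 or Bern SI library 4. Every Crick library detected more genes (25675 or more) than any Bern library (22406 or fewer). The facility and the making of the libraries cannot be told apart.

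The neuronal sorts were compared last. Of the 10 members, 5 passed the filter on low counts there, and Kdr, Flt1, Tie1, Emcn and Flt4 were not tested. Between colon and SI neurons, Prox1 and Lyve1 were lower in colon, where 3.54% of genes were lower, and Pecam1, Tek and Vwf did not pass. Prox1 had 0.413, 0.541, 0 and 0 CPM in Bern colon neurons against 10.8, 0.873, 8.35 and 1.72 CPM in Bern SI neurons, and 1.78, 2.41, 2.64 and 0.732 CPM in Crick colon against 5.66, 13.5, 5.85 and 7 CPM in Crick SI. The segments did not overlap at either facility (background 3.4% in Bern and 4.73% in Crick), and the log2 fold change was -3.50 ± 0.75 (adjusted p = 0.00576). Prox1 is also known as a transcription factor of some neurons. Lyve1 had 0.944 CPM on average in colon and 4.96 CPM in SI neurons, a log2 fold change of -2.51 ± 0.64 (0.0204) that was lost without Crick colon neuronal library 1 or 3 or Crick SI neuronal library 2 or 3 (up to 0.0569) and without the libraries in doubt (0.0534). The direction was thus the reverse of that in non-neuronal nuclei.

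Markers of other cells were followed in the same libraries. Between colon and SI neurons, 4 of 5 genes of interstitial cells of Cajal and 4 of 7 tested pericyte genes were lower in colon and none was higher, beside 3.54% of all genes lower. Of 5 tested macrophage genes edgeR called 0 and DESeq2 1, and 1, Cd74, had an unadjusted p under 0.05 (log2 fold change -2.09, adjusted p = 0.0561). Genes of interstitial cells of Cajal, which pace the muscle, had a summed level of 669 to 830 CPM in Bern colon neurons against 906 to 2543 in Bern SI, and 458 to 553 in Crick colon against 1466 to 2015 in Crick SI. The pericyte sum was 104 to 174 against 211 to 396 CPM in Bern and 93.7 to 124 against 172 to 347 CPM in Crick. Vtn was at 0 in both Bern neuronal groups, and Ndufa4l2 and the macrophage markers Cd163 and Adgre1 in Bern colon neurons. The macrophage sum was 17.6 to 31.5 against 18.4 to 35.9 CPM in Bern and 12.3 to 25.6 against 26.5 to 36.8 CPM in Crick. The part of these cells in the Prox1 and Lyve1 differences was not tested. Between Bern and Crick neurons 0 of the 5 tested members passed with edgeR and 0 with DESeq2, against 7.72% of genes with edgeR, and Tek and Prox1 had an unadjusted p under 0.05.

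Other genes of the same cells were read from lists. Between the sorts, 12 of 17 other pan-endothelial genes were lower in neuronal nuclei and 3 were higher, while 21.6% of all genes were lower and 21.9% higher. Lower ones of at least 5 CPM included Ecscr (60 CPM in non-neuronal, 0.353 in neuronal nuclei, log2 fold change -7.35), Robo4 (-6.45), Cldn5, a tight junction gene (-5.82), and Cdh5, the endothelial cadherin (-5.56). Ecscr, Robo4, Cldn5 and Cdh5 each have a neuronal group with no count, so these fitted sizes depend on the prior count. The 3 higher genes were Icam2 (3.41), Cyyr1 (2.09) and Arhgef15 (1.76), an exchange factor also known from neurons. Of 11 tested endothelial transcription factors, 7 were lower and none was higher, with Fli1, an ETS factor, at -5.13 and Nr2f2, a venous and lymphatic regulator, at -4.03. Of 11 tested arterial and venous genes 6 were lower, among them Ephb4 (-5.23) and Notch1 (-3.79), and 2 were higher, Ackr1 (3.98) and the Notch ligand Jag2 (3.91). Of 8 other lymphatic genes 4 were lower, Mmrn1 (-4.91), Itga9 (-4.68), Gja1 (-3.36) and Reln (-3.23), and none was higher; the share called, 50%, was near the 43.5% of all genes called in either direction. Of 8 ligands of the VEGF and angiopoietin families 5 were lower, among them Vegfc, the ligand of Flt4 (-2.89), and 1 was higher, Vegfa, the ligand of Kdr and Flt1 (0.65 ± 0.25, adjusted p = 0.0322). Of 8 tested pericyte genes 6 were lower and 1 higher.

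Between colon and SI non-neuronal nuclei, 6 of 17 other pan-endothelial genes were higher in colon and none was lower, with a median log2 fold change of 1.40, while 5.79% of all genes were higher and 3.54% lower. They included Cldn5 (15.3 CPM in colon, 0.545 in SI, log2 fold change 4.40), Cdh5 (2.75), the sphingosine receptor gene S1pr1 (2.37) and Mmrn2 (2.07). Of 11 tested endothelial transcription factors 2 were higher, Erg (14.8 against 1.24 CPM) and Sox18 (6.9 against 0.468 CPM), both without a count in Bern SI. Of 11 arterial and venous genes 2 were higher, Dll4 (10.4 against 1.92 CPM, likewise without a count in Bern SI) and Ackr1 (19.1 against 1.18 CPM), and Nrp1 was lower (-1.46). Of 8 other lymphatic genes, Mmrn1 (299 against 8.35 CPM, 5.09 ± 0.59, adjusted p = 1.05e-05) and Reln (219 against 9.71 CPM, 4.31 ± 0.51, 1.55e-05) were higher and 3 were lower, Gja1 (-2.14), Itga9 (-0.86) and Nrp2 (-0.59), which are active in other cells of the gut wall as well. The list's median was -0.48. Mmrn1 (4.59) and Reln (4.10) also passed in Crick alone. No pan-endothelial, transcription factor or arterial and venous gene passed in Crick alone, with list medians of 1.25, 1.49 and 0.81. In Bern alone 5, 2 and 2 of them were higher, and Nrp1 was lower. Over all genes 0.0991% were higher in Crick alone and 6.51% in Bern alone. Of 8 ligands, Vegfd, which binds Flt4, was lower in colon (8.35 against 39.4 CPM, -2.51) and the others did not pass, and of 8 pericyte genes Abcc9 was lower (-1.59). These single calls among 8 genes (12.5%) are near the 9.32% of all genes called in either direction.

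Genes whose levels ran most like the members were found by Pearson's r on log2(CPM + 1) over the 16 non-neuronal libraries, among 14353 genes of at least 5 CPM, with predicted genes known only by a clone or model symbol passed over. The libraries fall into colon and SI groups, so any gene with that split ranks high, and the values are a description. Nearest to the mean of the 7 blood members were Thy1 (0.91), Insrr (0.90), Slc45a3 (0.90), Galnt3 (0.89), Mmrn1 (0.88), Lcp1 (0.88), Rassf9 (0.88) and Itgb2 (0.88). Among the named genes, Ccl21a (0.96), Mmrn1 (0.95), Hoxd10 (0.94) and Hoxd11 (0.94) were nearest to the mean of the 3 lymphatic members, after 3 predicted genes had been passed over. Ccl21a, a chemokine of lymphatic vessels, is uncertain because its symbol covers 2 identifiers with near-identical copies. Set against the mean of the other blood members, Tie1 reached 0.93, Pecam1 and Kdr 0.78 and Emcn 0.66, while Flt1 (0.31), Tek (0.24) and Vwf (-0.03) did not follow it. Prox1 and Flt4, lymphatic genes by name, reached 0.90 with that mean. With the mean of the lymphatic members, Emcn reached 0.89, Pecam1 and Tie1 0.85 and Kdr 0.63. Over these pooled libraries Emcn and Pecam1 thus ran closer to the lymphatic mean than to that of the other blood members, and Tie1 and Kdr did not. With each group's mean taken off, r of Emcn was 0.36 with Flt4, 0.27 with Lyve1 and -0.02 with Prox1, against 0.94, 0.67 and 0.82 before. Pecam1 then had 0.72, 0.77 and 0.27, against 0.82, 0.76 and 0.76. With single blood members Emcn then ran from -0.47 (Flt1) to 0.33 (Pecam1), and Pecam1 from -0.08 (Tek) to 0.55 (Tie1).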

How the data were processed

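Nuclear RNA of 32 sorted populations had been amplified (NuGEN Ovation) and sequenced as 75-base single-end reads, per the labels' protocols. The authors deposited expected counts per gene, which the submitters' processing notes tie to RSEM 1.3.0, STAR 2.5.2, DESeq2 1.10.1 and GRCm38; 10.8% of the values had decimals. The use of strand is not given in the sources used here. Counts were rounded, and 51719 of 51912 identifiers were matched to GENCODE M21.

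Tests were edgeR 4.0.16 quasi-likelihood fits (R 4.3.3) of group means, with TMM scaling, filterByExpr and Benjamini-Hochberg adjustment over all genes tested at 0.05. Non-neuronal and neuronal libraries were fitted apart, and all 32 together for the 2 comparisons across sorts. SE is the fold change divided by the square root of F. CPM is the count over the library total. The script was tested on simulated data. Alternatives were DESeq2 1.42.0, total-count scaling, no filter, a single fit, a replicate block, and leaving out libraries. Besides the 10 members, the text names at most 4 passing genes per list and comparison, by size of change and at least 5 CPM on the higher side, with a few others picked after their values were seen. The members and lists were chosen with earlier results of these data known.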

Additional observations from a re-analysis of the deposited data

Results flagged for a closer look

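In 6 of 47 sets of 4 libraries with at least 5 CPM in 1 library, a single library lay apart from the rest by Dixon's criterion. That criterion flags about 1 of 20 sets of normally spread values. Some sets, such as those of Pecam1 and Emcn below, entered only through their outlying library, so the rates cannot be compared. Pecam1 had 9.54 CPM in Bern SI neuronal library 1, with 0.418 to 1.75 in the others. Tek had 88 CPM in Bern SI non-neuronal library 2, with 0 to 7.12 in the others. Tie1 had 33.1 CPM in Crick colon non-neuronal library 2, with 20.6 to 22.3 in the others. Vwf had 206 CPM in Bern SI non-neuronal library 3, with 0.316 to 7.77 in the others. Emcn had 5.13 CPM in Bern colon neuronal library 3, with 0 to 0.836 in the others. Prox1 had 13.5 CPM in Crick SI neuronal library 2, with 5.66 to 7 in the others, and that library also had the highest mitochondrial share of the neuronal sort (15.99%).

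The colon against SI difference differed between the sorts for 6 members, by the edgeR interaction of segment and sort. The log2 difference of differences was -7.82 for Prox1, -6.81 for Tie1, -6.27 for Lyve1, -5.10 for Kdr, -4.99 for Flt4 and -2.92 for Pecam1.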

How the results depend on the processing

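Total-count scaling moved no count of members or genes by over 1.5 times, though the Kdr facility call was lost (adjusted p = 0.053), and no passing member changed direction under any alternative run. With DESeq2 the genes passing were 2948 (colon against SI, non-neuronal), 3431 (Bern alone), 194 (Crick alone), 329 (segment by facility), 2853 (facility, non-neuronal), 699 (facility in colon), 2271 (facility in SI), 1599 (colon against SI, neuronal), 2325 (facility, neuronal) and 2215 (segment by sort). The members passing with DESeq2 were 2 (segment by facility), 5 (facility), 5 (facility in SI) and 7 (segment by sort). With no filter the genes were 2962 (Bern alone), 262 (Crick alone), 229 (segment by facility), 6373 (facility), 418 (facility in colon), 1652 (neuronal segment) and 2155 (neuronal facility), and the members 2, 5, 1 and 1 for segment by facility, facility, neuronal segment and neuronal facility. With all 32 libraries in a single fit the genes were 2862 (segment), 3485 (Bern), 99 (Crick), 114 (segment by facility), 3176 (facility), 490 (facility in colon) and 2012 (facility in SI), and 1 member passed in the neuronal facility comparison. Without the 6 libraries in doubt the genes were 764 (segment), 617 (Bern), 8 (Crick), 745 (facility), 0 (facility in colon) and 207 (facility in SI), and 1 member passed in each of Crick, facility, facility in SI and neuronal segment. That setting has fewer libraries; the other causes were not tested.

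No 2 groups of a facility had all 4 same-numbered pairs at r over 0.1 (11 of 48 pairs were, range -0.36 to 0.53), so the numbers were not taken to pair the libraries. Between the 2 sorts of 1 tissue, 3 of 4 pairs were over 0.1 in Crick colon (0.07 to 0.31) and in Crick SI (0.10 to 0.53) and 0 in Bern (0.00 to 0.05), and in each of these 4 cases 3 of 4 libraries correlated best with their own number, a hint from the data and not from the design. The block left the members passing between the sorts at 9 and for segment by sort at 6. With the replicate block 849 genes passed in Bern, 68 for facility in colon and 2.5e+02 (to 2 digits) for facility in SI, 1 member passed in the neuronal segment comparison (Lyve1 lost, adjusted p = 0.0608), and Kdr did not pass for segment (0.158) or facility (0.0728), nor Emcn for facility in SI (0.0565).

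Leaving out single libraries gave 1172 to 2417 genes (segment), 22 to 74 (Crick), 0 to 4 (segment by facility), 12 to 380 (facility in colon), 94 to 1217 with 1 to 5 members (facility in SI), 799 to 1818 (neuronal facility) and 1 to 2 members (neuronal segment). In the neuronal sort 5 members had too few counts to test, at group totals (13605604 to 24682596) like those of the non-neuronal sort (14272557 to 23051995). A gene at 0 in a group is known only to be under 0.122 to 0.22 CPM, the worth of 3 counts over the group.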
